A study of Mus musculus with 6 samples.

Results

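The small Maf proteins MAFG, MAFK and MAFF, the repressor BACH1 and the membrane-bound activator NRF1, encoded by Nfe2l1, are the partners and competitors of the transcription factor NRF2. Their 5 genes, of 18193 with a probe set of their own on the array, were found by symbol in the platform annotation, and every probe set with 1 of these symbols was included. This gave 7 probe sets, 2 each for Mafg and Bach1 and 1 each for Mafk, Maff and Nfe2l1. The livers came from 3 mice with conditional loss of Keap1 (Alb-Cre:Keap1(flox/-)), called knockouts, and 3 genetic controls (Alb-Cre:Keap1(flox/+)), with 1 mouse per array. All 6 mice were male, 9 weeks old and had received only a vehicle of 10% DMSO, 10% Cremophor-EL and 80% PBS. Cre recombinase is driven by the albumin promoter, which is active in hepatocytes. Both groups carry the same Cre and a floxed allele, so where Cre acts the controls keep only their wild-type allele, while the second allele of the knockouts is null in every cell. Whole liver was used, in which fewer cells of a type and less RNA per cell cannot be told apart.

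KEAP1 is the adaptor of a CUL3 ubiquitin ligase that marks NRF2 for degradation. NRF2 and its relatives of the CNC family cannot bind the antioxidant response element alone and do so as heterodimers with a small Maf protein, which has a DNA-binding leucine zipper but no activation domain of its own. BACH1 pairs with the same small Mafs and represses heme oxygenase and other genes until heme removes it from DNA. NRF1 also pairs with them, is held in the endoplasmic reticulum and, once released, activates the genes of the proteasome. The design asks which hepatic genes differ with the loss of Keap1, and here how the RNA of these partners differs.

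Upstream sequences are shown for the 3 small Maf genes, whose 250 bases before an annotated start hold the only matches among the 5 genes to an antioxidant response element core, the site at which NRF2-small Maf dimers bind. The sequences are those of RefSeq on build GRCm38.p6, in which all 5 genes had an entry, with 11 windows in all. They are written 5′ to 3′ on the strand of the gene, ending at the base before the start, with the match in capitals. The Mafg window lies at chr11:120633548-120633797 on the minus strand, the Mafk window at chr5:139791286-139791535 on the plus strand and the Maff window at chr15:79346371-79346620 on the plus strand.
Mafg: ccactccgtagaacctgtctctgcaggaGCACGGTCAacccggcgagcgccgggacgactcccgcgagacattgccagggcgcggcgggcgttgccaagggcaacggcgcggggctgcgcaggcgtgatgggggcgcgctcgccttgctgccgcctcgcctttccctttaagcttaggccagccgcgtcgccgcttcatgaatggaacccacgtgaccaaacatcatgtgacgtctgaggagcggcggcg
Mafk: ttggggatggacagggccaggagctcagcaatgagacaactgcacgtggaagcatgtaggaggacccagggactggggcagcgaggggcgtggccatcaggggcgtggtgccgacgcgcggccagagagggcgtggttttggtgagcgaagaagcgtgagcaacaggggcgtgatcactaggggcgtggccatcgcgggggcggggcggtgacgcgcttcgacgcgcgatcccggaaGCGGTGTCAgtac
Maff: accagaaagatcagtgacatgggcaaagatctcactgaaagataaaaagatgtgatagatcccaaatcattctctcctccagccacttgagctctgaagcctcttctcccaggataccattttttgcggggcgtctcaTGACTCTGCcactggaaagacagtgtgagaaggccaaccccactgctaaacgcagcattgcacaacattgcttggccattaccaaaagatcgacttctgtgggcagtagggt

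The core was searched as TGACNNNGC on both strands. In Mafg the match TGACCGTGC lay on the opposite strand, 222 to 214 bases upstream of the start. In Mafk the match TGACACCGC lay on the opposite strand, 13 to 5 bases upstream. In Maff the match TGACTCTGC lay on the strand of the gene, 112 to 104 bases upstream of the first of its 3 annotated starts. The single Bach1 window and the 5 Nfe2l1 windows held no match. Of all 32851 windows of this length in the RefSeq table, 10.2% held the core, so 3 of 11 windows is a description of these letters and not of binding. The CNC-small Maf element TGANTCAGC was in 1.02% of all windows and the AP-1 site TGANTCA, whose letters it contains, in 6.75%, and 0 of the 11 member windows held either. The Mafg window lies inside the annotated span of the gene, at chr11:120625117-120634955.

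Of the 5 genes only Mafg passed the test, and it was higher in the knockouts. Its brighter probe set, 1448916_at, had a signal of 2057, 1873 and 1907 in knockouts 3, 4 and 5, against 1387, 1387 and 1324 in controls 1, 2 and 3. Every knockout lay above every control, and the spread within either group was small beside the gap. The knockouts averaged 1946 ± 97.9 and the controls 1366 ± 36.1 (mean ± SD, n = 3 each). This is a 1.42-fold rise, with a 95% confidence interval of 1.23 to 1.64, and a log2 difference of 0.50 ± 0.09 (SE; limma adjusted p = 0.0327 over the genes tested). It ranked at 188 of 13036 genes by p-value.

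The second Mafg probe set, 1434054_at, gave nearly the same fold without passing. Its signal was 777, 661 and 931 in the knockouts, against 541, 485 and 661 in the controls. Knockout 4 and control 3 stood at the same level, so the groups touched. The log2 difference was 0.48 ± 0.17 (SE), with a 95% confidence interval of 0.10 to 0.85 (limma adjusted p = 0.231 over all probe sets). Both Mafg probe sets therefore had a positive difference of like size, and the spread among mice was wider in the second.

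Of the 7 member probe sets 6 passed the filter on low signal, and 1 of these 6 rose, where 0.814% of all 27022 probe sets tested did (Benjamini-Hochberg over all of them), and 0 fell, where 0.722% did. The same probe set, 1448916_at, was the only one of the 6 whose groups did not overlap, where 20.5% of all probe sets tested had groups that did not. Over genes, with 1 probe set each, 1 of the 4 members tested rose, where 1.05% of genes rose. The background for a fall was 0.967% of genes, and 0 of the 4 fell, and 2.02% of genes passed in either direction. A difference at least as large as that of the brighter Mafg probe set was present in 12.5% of the probe sets tested.

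The Mafg call needed all 6 arrays. It was lost without any 1 of the 6, at a log2 difference of 0.46 to 0.53 and a limma adjusted p of 0.0678 to 0.151. The size moved little in these runs, and the smallest was the one without knockout 3, the highest of the knockouts. Over all genes 93 to 173 passed in the same runs, against 263 with all 6 arrays. The Mafg call was also lost when the arrays were scaled on their hybridisation controls, where the log2 difference was 0.34 (adjusted p = 0.147).

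**Figure D1:**
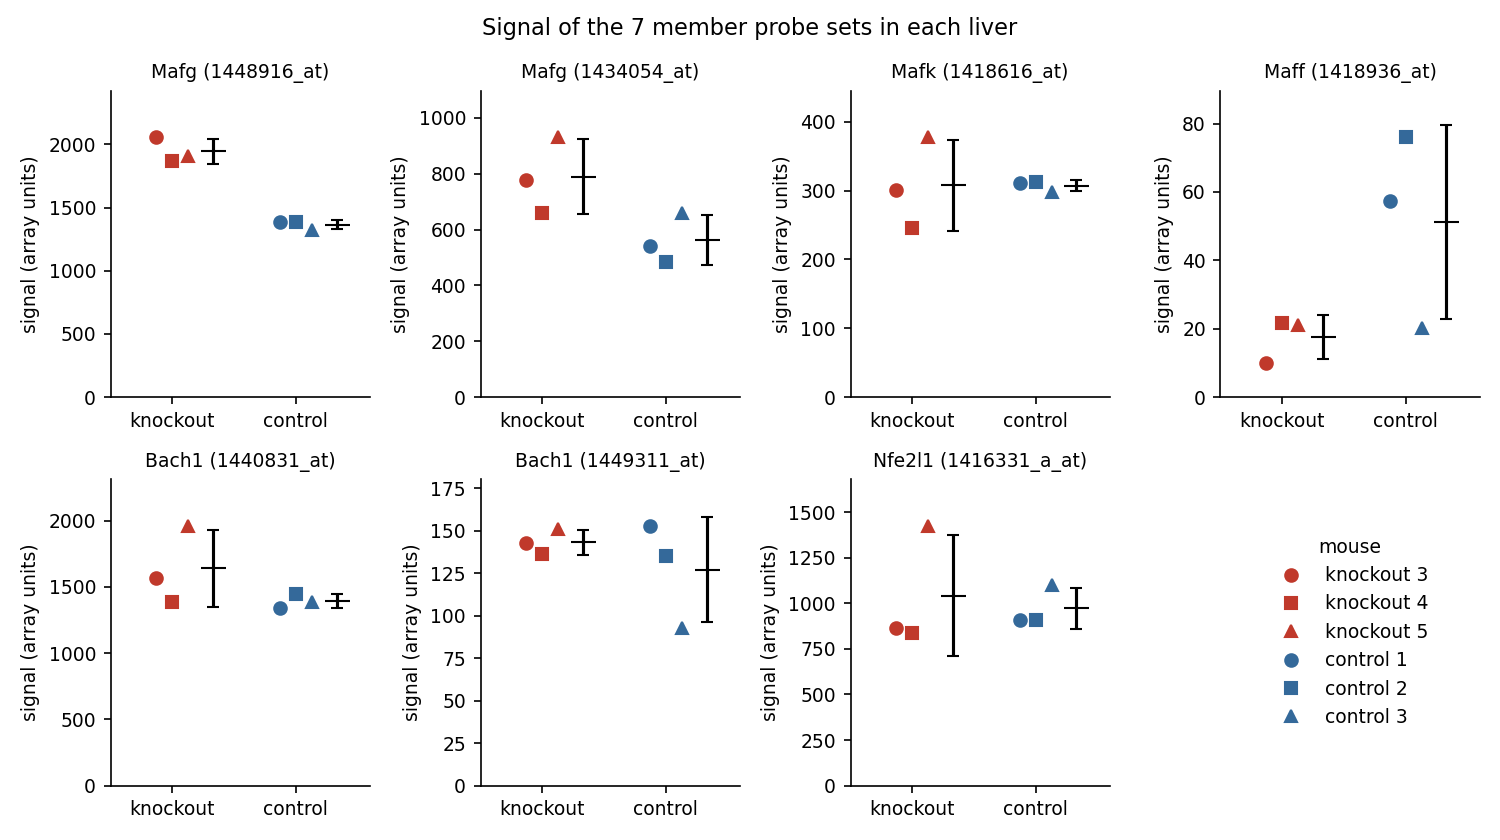
Signal in array units (linear, from 0) of each member probe set in the 3 knockouts (red, left) and 3 controls (blue, right), with the symbol giving the mouse and the black bar the mean and SD. The knockouts lie above all controls in Mafg 1448916_at, at 1873 to 2057 against 1324 to 1387, and the groups overlap in the other 6 panels.

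Mafk, the second small Maf, had the same mean in both groups. Its signal was 301, 245 and 377 in the knockouts, against 311, 312 and 298 in the controls. The knockouts lay on both sides of the controls and were spread more widely, with averages of 308 ± 66.3 for knockouts and 307 ± 7.79 for controls (± SD, 3 mice each). The log2 difference was -0.02 with a 95% confidence interval of -0.42 to 0.39, or 0.747-fold to 1.31-fold (limma adjusted p = 0.978). The interval leaves room for a change in either direction of up to about that size. The sign itself turned with quantile, cyclic loess and median scaling.

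Maff, the third small Maf and a gene known for rapid induction by stress, was dim in all 6 livers. Its signal was 10.1, 21.8 and 21 in the knockouts, against 57.4, 76 and 20.3 in the controls. Controls 1 and 2 were above the other 4 livers, and control 3 lay within the range of the knockouts. With a mean of 34.4 over the 6 arrays it fell under the filter of 84.2 and was not tested. Its group means differed by -0.92 on the log2(signal + 16) scale, a size that depends on the offset, at -1.37 with an offset of 1 and -0.47 with 64. Without the filter the gene did not pass (limma adjusted p = 0.372).

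Bach1, the repressor that competes with NRF2 for the small Mafs, did not pass in either probe set. Its brighter probe set, 1440831_at, had a signal of 1571, 1390 and 1961 in the knockouts, against 1340, 1448 and 1385 in the controls. Knockouts 3 and 5 lay above all controls and knockout 4 among them. The log2 difference was 0.22 ± 0.13 (SE), or 1.17-fold with a 95% confidence interval of 0.945 to 1.44 (limma adjusted p = 0.476). Without knockout 5 the difference was 0.09. The dimmer probe set, 1449311_at, had a signal of 143, 136 and 151 in the knockouts, against 153, 136 and 93.1 in the controls. Only control 3 stood apart there, and without it the log2 difference of 0.18 became -0.01.

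Nfe2l1, the gene of NRF1, did not pass either. Its signal was 864, 836 and 1425 in the knockouts, against 907, 910 and 1101 in the controls. Knockouts 3 and 4 lay under all controls, while knockout 5 lay above them. The log2 difference was 0.06 with a 95% confidence interval of -0.40 to 0.52, or 0.759-fold to 1.43-fold (limma adjusted p = 0.927), and without knockout 5 it was -0.19. The mean of the knockouts was thus set by 1 mouse.

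**Figure D2:**
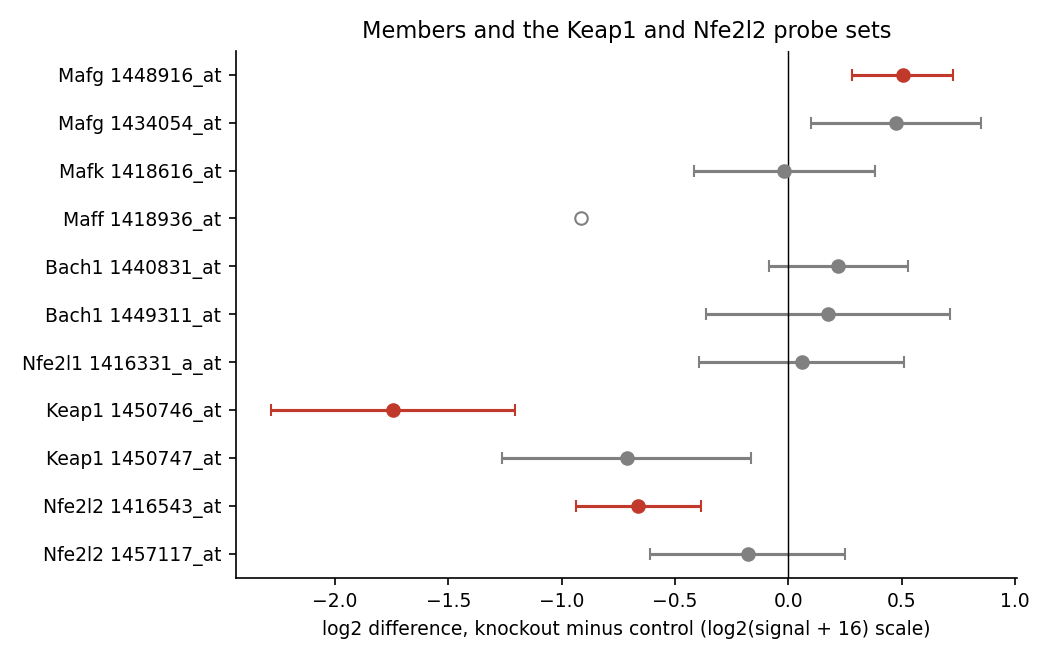
Log2 difference (knockout minus control, on the log2(signal + 16) scale) of each member probe set and of the Keap1 and Nfe2l2 probe sets, with 95% confidence intervals from limma over all probe sets tested. Red marks an adjusted p under 0.05, and the open circle is Maff, which was not tested. Mafg 1448916_at stands at 0.50 and Mafg 1434054_at at 0.48 with intervals above 0, while the intervals of Mafk, Bach1 and Nfe2l1 cross 0.

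Knockout 5 was the highest of the 6 livers in 4 of the 7 member probe sets, Mafg 1434054_at, Mafk, Bach1 1440831_at and Nfe2l1. The share of all probe sets that were highest in this liver was not computed. Relative to the mean of the controls, the log2 values of knockout 5 were 0.48 for Mafg, 0.28 for Mafk, 0.49 for Bach1 and 0.55 for Nfe2l1. In knockout 4, Mafg was also higher, at 0.45, while Mafk, Bach1 and Nfe2l1 were at -0.31, 0.00 and -0.21. In knockout 3, Mafg was at 0.59, Bach1 at 0.17, Mafk at -0.03 and Nfe2l1 at -0.16. Mafg was therefore the only 1 of the 4 tested members that lay above the controls in each of the 3 knockouts.

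Markers of erythroid cells, in which NF-E2 pairs with small Mafs, varied among the same mice. The summed signal of the 6 erythroid markers with a probe set was 1989, 1160 and 3251 in knockouts 3, 4 and 5, against 2882, 2464 and 2450 in controls 1, 2 and 3. Knockout 4 had the lowest sum, as in Mafk and Nfe2l1. Knockout 5 had the highest sum. Slc4a1 was at 480 there and 146 and 73.4 in the other knockouts, against 21.6 to 109 in the controls. Among the knockouts Alas2 differed more, at 2054 in knockout 5 against 1372.3 and 641.5 in knockouts 3 and 4. Alas2 was highest in control 1. The control mean of Slc4a1, 59.6, was under the filter on low signal, which its probe set passed through the knockouts. Hba-a1 and Epb42 were under the filter, Epb42 with a signal under 16 in 5 arrays. The summed signal of 7 hepatocyte markers was 175833 to 196277 in the knockouts, against 153746 to 172604 in the controls, without overlap, as in Mafg. The median signal of a whole array also varied. It was 122.2, 114.3 and 135.1 in knockouts 3, 4 and 5, against 126.1, 127.9 and 146.1 in controls 1, 2 and 3. Among the knockouts it was thus highest in knockout 5 and lowest in knockout 4. The actin 3′ to 5′ ratio, a sign of RNA quality, was 1.85 in knockout 5 and lay between 1.54 and 1.90 in all livers. The part of these measures in the member values was not tested.

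**Figure D3:**
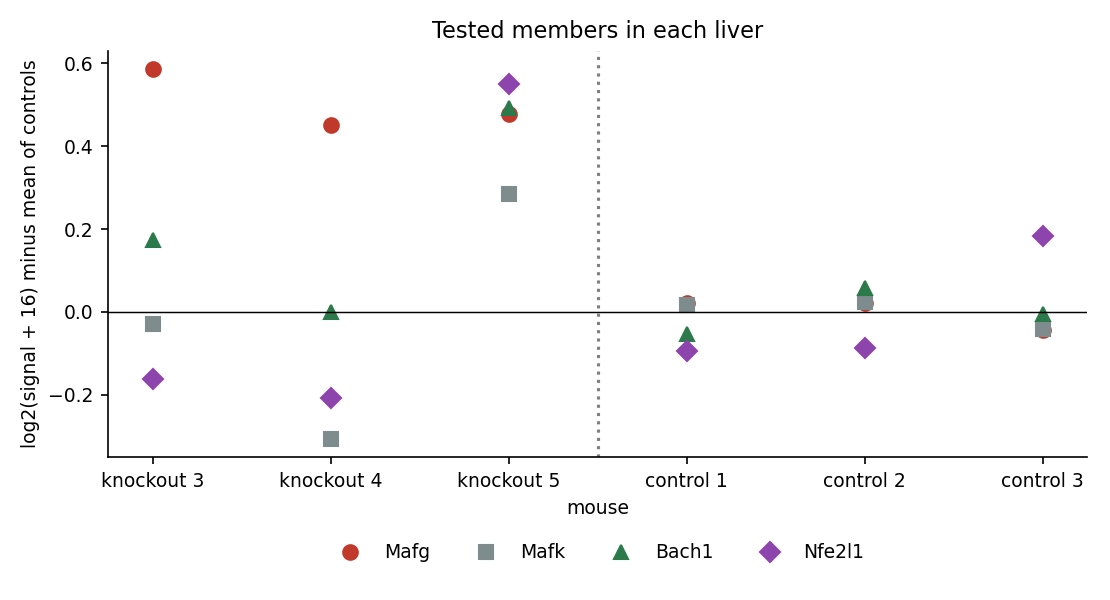
Log2(signal + 16) of the brightest probe set of Mafg, Mafk, Bach1 and Nfe2l1 in each liver, minus the mean of the 3 controls, with knockouts left of the dotted line and controls right of it. Mafg lies at 0.45 to 0.59 in the 3 knockouts, while the other 3 genes are high in knockout 5 and spread around 0 in knockouts 3 and 4.

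Whether the members differed from each other was examined with the difference of 2 members within each array. These comparisons were chosen after the values had been seen, and with 3 mice against 3 an exact two-sided permutation test cannot go below p = 0.1. Relative to Mafk, Mafg was higher by 0.61, 0.76 and 0.19 in knockouts 3, 4 and 5 on the log2 scale, against 0.00 in each control after centring on them. The groups did not overlap, with a mean difference of 0.52 (exact permutation p = 0.1, adjusted p = 0.3 over the 6 pairs). Relative to Bach1, the mean shift of Mafg was 0.28 and the groups overlapped because of knockout 5 (exact permutation p = 0.2, adjusted p = 0.4). Relative to Nfe2l1 it was 0.45, again with overlap through knockout 5 (exact permutation p = 0.3, adjusted p = 0.45). Mafk relative to Bach1 was at -0.20, -0.31 and -0.21 in knockouts 3, 4 and 5, against 0.07, -0.03 and -0.04 in controls 1, 2 and 3, without overlap (mean difference -0.24, exact permutation p = 0.1, adjusted p = 0.3). Mafk relative to Nfe2l1 and Bach1 relative to Nfe2l1 shifted by -0.08 and 0.16 with overlap (exact permutation p = 0.7 and 0.4, adjusted p = 0.7 and 0.48).

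The genes with the profile nearest to that of each member were found by root mean square distance over the 6 arrays. The distance was that of log2 values, each gene centred on its controls. Genes so chosen resemble the member by construction, so their differences and p-values are no separate support. For Mafg they were Tent4b, Txndc11 and Hps1, at distances of 0.036, 0.049 and 0.052, with log2 differences of 0.48, 0.50 and 0.47. Of these Tent4b passed the test (limma adjusted p = 0.0310), and Txndc11 and Hps1 did not (adjusted p = 0.0751 and 0.0822). For Bach1 they were Tpra1, Papola and Eepd1, at 0.040 to 0.057. For Nfe2l1 they were 5830454E08Rik, Bcl2l12 and Pi4kb, at 0.046 to 0.053, and for Mafk they were Ms4a18, Zfp740 and Fem1c, at 0.020 to 0.034. For Maff, whose profile is that of a dim probe set, the nearest were farther away, Nceh1, Adamts5 and Fads2 at 0.18 to 0.21.

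In the same livers the RNA of Keap1 and of Nfe2l2 fell, each in its brighter probe set only. The NRF2 protein was not measured. Keap1, the targeted gene, had a signal of 326, 151 and 214 in the knockouts, against 786, 843 and 700 in the controls (limma adjusted p = 0.0121), and whether its probes lie in the deleted part was not analysed here. Its second probe set had 336, 446 and 206 in the knockouts, against 477, 564 and 541 in the controls, without passing (adjusted p = 0.222 over all probe sets). Nfe2l2, the gene of NRF2, had 2222, 2899 and 2397 in the knockouts, against 3676, 4285 and 3912 in the controls, 1.58-fold lower (adjusted p = 0.0310). That call was kept without knockout 4 and lost without any 1 of the other 5 arrays (adjusted p = 0.0666 to 0.117), and the dimmer Nfe2l2 probe set differed by -0.18 without passing (adjusted p = 0.716). Of its relatives Bach2, a second CNC repressor, and the large Maf gene Maf differed by -0.22 and 0.02 on the log2 scale without passing (adjusted p = 0.728 and 0.943), and 5 of the 8 genes of that family list were not tested. By the brighter probe set of each gene, Mafg was higher in the 3 livers in which Nfe2l2 was lower than in every control. In the dimmer probe set of each the groups overlapped. Of all genes tested, 21.3% had groups that did not overlap, and a link between Mafg and Nfe2l2 was not tested.

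Among AP-1 genes, whose products share the leucine zipper fold and can pair with some Maf proteins, 0 of 10 tested rose and 2 fell. Of all genes tested, 0.967% fell. An unadjusted limma p under 0.05 was found for 4 of the 10, where 15.3% of all genes tested had one. The median log2 difference of the 10 was -0.31, beside -0.02 for all genes tested. Jdp2, the largest of 4 that lay above the controls, differed by 0.71 and did not pass (limma adjusted p = 0.0843). Its groups did not overlap, as in 21.3% of all genes tested. Its dimmer probe set differed by -0.41 with overlap. Jun averaged 352 ± 92.0 in knockouts and 943 ± 302 in controls (± SD, 3 mice each), a log2 difference of -1.36 (limma adjusted p = 0.0438). The call was kept without control 1 and lost without any 1 of the other 5 arrays (adjusted p = 0.0567 to 0.133). The second Jun probe set differed by -1.24 without passing (limma adjusted p = 0.0705 over all probe sets). Jund averaged 1560 ± 36.8 in knockouts and 2434 ± 75.7 in controls, a log2 difference of -0.64 (adjusted p = 0.0121), and its call was lost without knockout 3 (adjusted p = 0.0586).

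Genes that NRF2-small Maf dimers activate were higher beside the single Mafg rise. Of 23 tested 16 rose, where 1.05% of all genes tested did, and 0 fell. Like the other lists here, this one was chosen with earlier results of these data known, so the share is no independent test. The median log2 difference of the 23 was 1.25, and without any 1 array 13 to 15 rose. They were led by the carbonyl reductases Cbr3 and Cbr1, the exporter Abcc4, the glutathione transferase Gsta2 and the quinone reductase Nqo1, at 106-fold, 5.88-fold, 20.6-fold, 5.23-fold and 4.96-fold. The Cbr3 value rests on its dim controls, at 100.2, 432 and 107, and its log2 difference of 6.73 was 7.36 without control 2. Against these the 1.42-fold of Mafg is a small difference of a probe set, on the same log2(signal + 16) scale.

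Of the genes known as repressed by BACH1, several of which NRF2 also activates, 6 of 13 tested rose and 0 fell. Of all genes tested, 1.05% rose. The median log2 difference of the 13 was 0.76, and without any 1 array 4 to 6 rose. Besides Nqo1 they were the biliverdin reductase Blvrb at 2.58-fold, the thioredoxin reductase Txnrd1 at 2.37-fold, the glutamate-cysteine ligase subunit Gclc at 2.26-fold, the heme transporter Slc48a1 at 1.86-fold and the iron exporter Slc40a1 at 1.45-fold. Nqo1, Txnrd1 and Gclc are also counted among the NRF2-small Maf targets above. The Slc48a1 call was kept without knockout 5 or control 2 and lost without any 1 of the other 4 arrays (limma adjusted p = 0.0710 to 0.101). Hmox1, heme oxygenase and the best known gene under BACH1, averaged 615 ± 101 in knockouts and 355 ± 55.5 in controls (± SD, 3 mice each). It did not pass (log2 difference 0.76, limma adjusted p = 0.0609). Its groups did not overlap, which was so for 21.3% of all genes tested.

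For NRF1, the proteasome subunits it activates were examined with the enzymes that process it. Of 34 proteasome genes 2 rose, where 1.05% of all genes tested did, and 0 fell. Their median log2 difference was 0.07, and 23 lay above the controls, where 47.2% of all genes tested did. Psmd5, an assembly chaperone of the regulatory particle, rose 1.72-fold and Psmb5, a catalytic subunit, 1.45-fold (limma adjusted p = 0.0217 and 0.0415). Psmb5 lost its call without any 1 array, and Psmd5 kept it without knockout 5 or control 1 and lost it without any 1 of the other 4 (adjusted p = 0.0641 to 0.0878). Of 9 genes that process or turn over NRF1, 0 passed by limma, 1 had an unadjusted p under 0.05, where 15.3% of all genes tested did, and 0 passed in any of the 20 other settings. The largest differences were those of the ubiquitin ligase subunit Fbxw7 and the cofactor Hcfc1, at -0.36 and -0.19 (limma adjusted p = 0.291 and 0.447).

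Of 10 other genes linked to NRF1 in liver, 3 rose, where 1.05% of all genes tested did, and without any 1 array 2 or 3 rose. They were the metallothioneins Mt2 and Mt1, by 3.78 and 3.58 on the log2 scale, and the fatty acid transporter Cd36, by 2.51. The Cd36 call was kept without control 2 and lost without any 1 of the other 5 arrays (limma adjusted p = 0.0537 to 0.0731). Of 9 coactivators and other cofactors of NRF2-small Maf dimers 0 passed by limma, and 0 passed in any of the 20 other settings. An unadjusted limma p under 0.05 was found for 1 of the 9, beside the same 15.3% of all genes. The largest differences there were those of the chromatin remodeller Chd6 and the receptor Rxrg, at -0.61 and 0.28 (limma adjusted p = 0.106 and 0.616). Of 6 genes of the KEAP1 ligase and of BACH1 turnover only Keap1, the targeted gene, passed, where 2.02% of all genes tested did. Keap1, Rbx1 and Sqstm1, 3 of the 6, had an unadjusted limma p under 0.05, beside the same 15.3%. Fbxo22, which marks BACH1 for degradation, and Fbxl17 differed by 0.11 and 0.13 (adjusted p = 0.667 and 0.609). The ligase subunit Rbx1 averaged 73.3 in knockouts and 153 in controls without passing (adjusted p = 0.262). Its knockout mean lay under the filter on low signal, which the probe set passed through the controls. The size of this difference therefore depends on the offset. The scaffold Cul3 and the autophagy adaptor Sqstm1 differed by 0.15 and 0.32 without passing (adjusted p = 0.649 and 0.175).

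**Figure D4:**
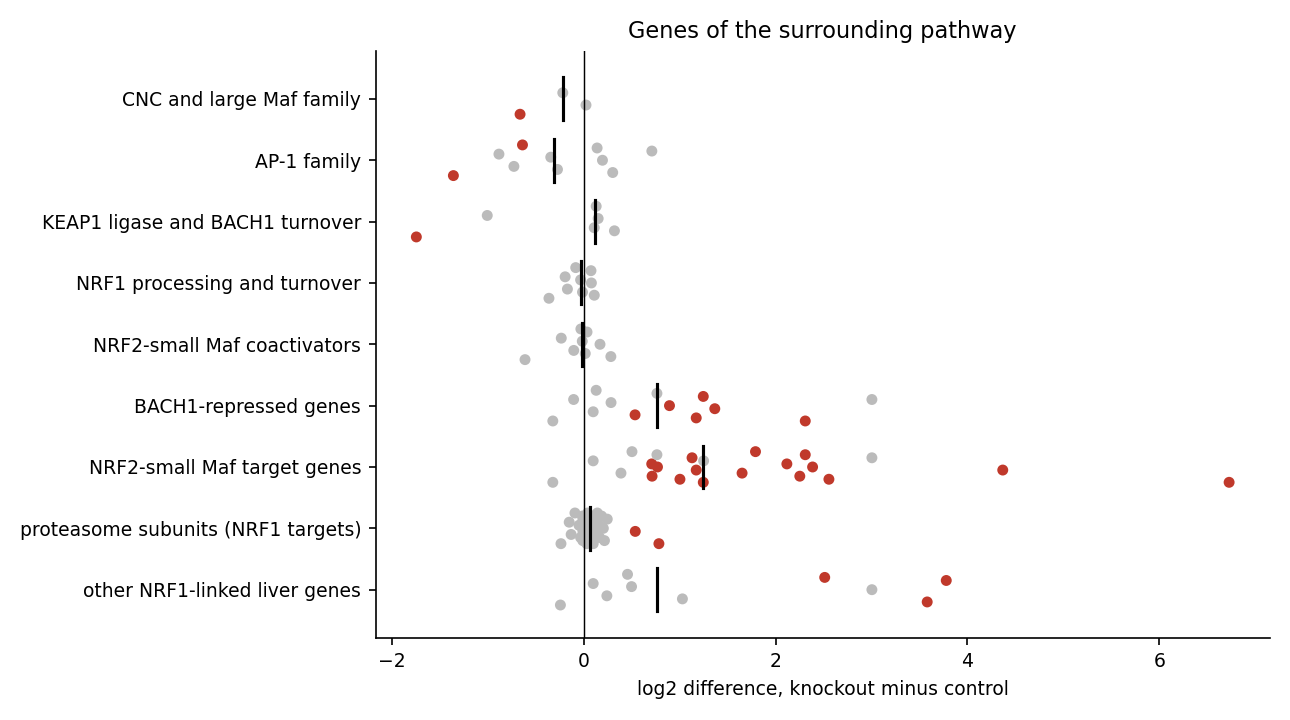
Log2 difference (knockout minus control) of each tested gene in the 9 lists around the members, with 1 point per gene, red where limma's adjusted p is under 0.05 and a black bar at the median of the list. The NRF2-small Maf targets and the BACH1-repressed genes lie mostly to the right of 0, with medians of 1.25 and 0.76, and the proteasome genes lie around 0.07.

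The 6 arrays correlated at 0.965 to 0.972 within groups and 0.954 to 0.959 between groups across the 27022 probe sets tested. Probe sets are not independent of each other. The hepatocyte markers were bright in every liver. Of 44 markers of 7 cell types tested, 0 passed by limma and 7 had an unadjusted p under 0.05, as did 15.3% of all genes tested. In all, 263 of 13036 genes passed, 137 higher and 126 lower in the knockouts.

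**Figure D5:**
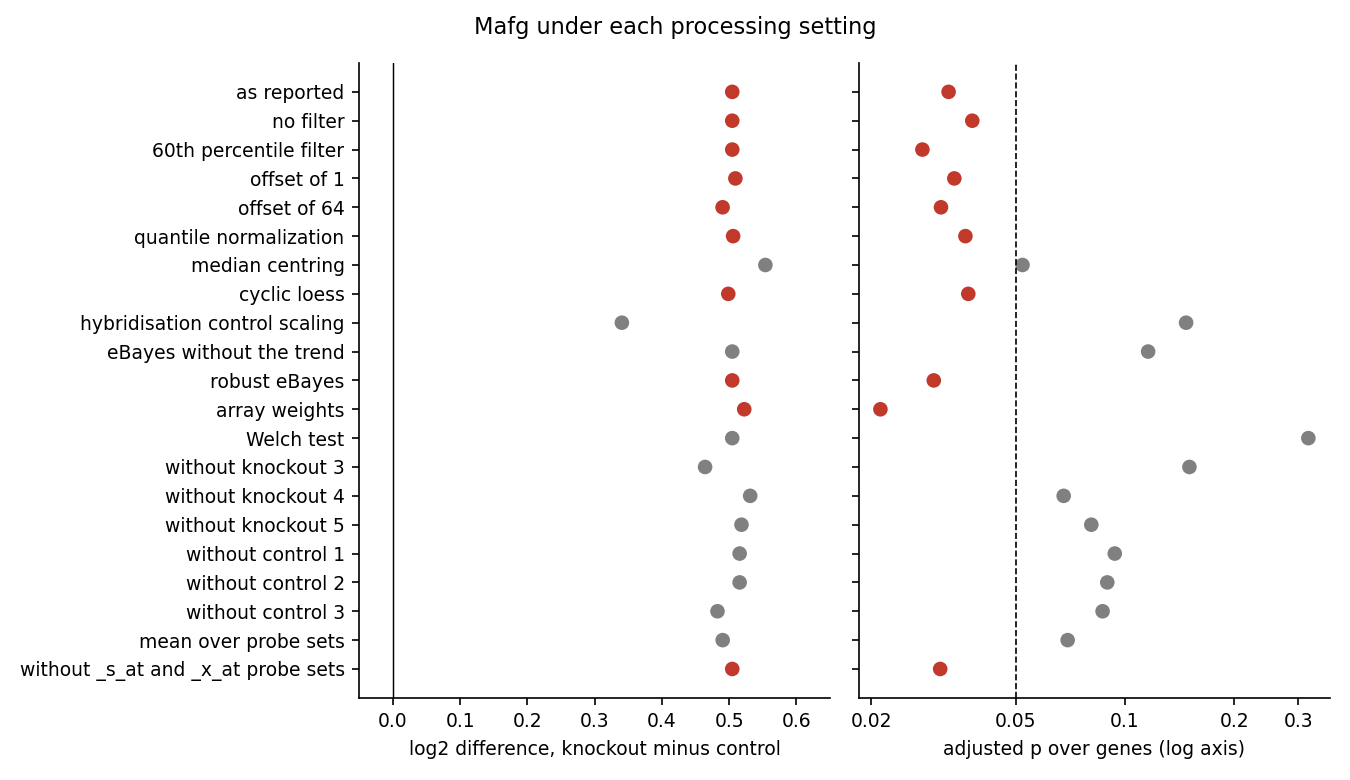
Mafg (brighter probe set, or the mean of both where stated) under the reported setting and 20 others, with the log2 difference (knockout minus control) at left and the adjusted p over genes, on a log axis with the threshold of 0.05 dashed, at right. The difference is positive in all 20 and between 0.34 and 0.55, while the adjusted p is under the threshold in 9 and lies over it in the 6 runs without 1 array.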

How the data were processed

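Liver RNA of 3 conditional Keap1 knockouts and 3 controls was measured on single-colour Affymetrix mouse arrays. Per the labels' protocols, total RNA was copied into cDNA from a T7-oligo(dT) primer and amplified as labelled cRNA, which reads transcripts from the 3′ end. The deposited values are linear intensity, 1 per probe set and array. The sources used here name no summarisation software and give no detection calls. A trimmed mean of 497 to 498 on every array shows that the authors' values share a scaling target, and a change in total RNA per cell would not be seen. Of 45101 probe sets, 64 were controls, 34945 had 1 gene symbol, 932 several and 9160 none. Only probe sets with 1 symbol were named.

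Here log2(signal + 16) was computed, which understates the change of dim genes. The filter on low signal, blind to group, kept the 27022 probe sets with a 6-array mean of at least 84.2, the 40th percentile, and so 13036 genes, each represented by its brightest probe set. The test was that of limma 3.58.1 under R 4.3.3, two-sided, using eBayes with its trend option and Benjamini-Hochberg adjustment at a threshold of 0.05, over genes for the brightest probe set and over all probe sets for the others. As a check of the code, the fit was run on simulated arrays with independent noise. This does not show how reliable a single call is here. "Rose" and "fell" are used of genes past the threshold. The members, lists and tests were chosen with earlier results of these data known. Named were all member probe sets, Keap1, Nfe2l2, up to 5 passing genes of each list or the 2 largest differences where none passed, and the 3 nearest profiles of each member. Slc40a1, Hmox1, Fbxo22, Fbxl17, Rbx1, Cul3, Sqstm1, Bach2, Maf, Jdp2, Gclm, Slc7a11, Me1 and the erythroid markers were named outside this rule, after their values were seen. The number of arrays limits the precision. Nothing in the labels marks a batch. The alternatives were other filters, offsets, scalings, variance models and probe set choices, a Welch test and leaving out each array.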

Additional observations from a re-analysis of the deposited data

How the results depend on the processing

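Mafg was higher in the knockouts in all 20 other settings and passed in 9. Its log2 difference without a call was 0.55 after median centring, 0.34 after scaling on the hybridisation controls, 0.49 as the mean over both probe sets, and 0.50 both in eBayes without the trend (adjusted p = 0.116) and in the Welch test (0.320). Without 1 array it was 0.46 to 0.53. The number of member probe sets that passed was 1 as reported, and 0 without the filter, after median centring, after scaling on the hybridisation controls, in eBayes without the trend, in the Welch test and in each run without 1 array. Mafk, which was not called in any setting, changed sign to 0.0504 after quantile normalization, 0.0322 after median centring and 0.0379 after cyclic loess, and ran from -0.17 to 0.13 without 1 array. Nfe2l1 was at -0.10 after scaling on the hybridisation controls and ran from -0.19 to 0.19 without 1 array. Bach1 1449311_at ran from -0.00744 to 0.308 without 1 array. Bach1 1440831_at and Maff kept their sign in all 20 settings. The number of genes that passed was 263 as reported, 68 in eBayes without the trend, 0 in the Welch test (1332 at an unadjusted p under 0.05) and 93 to 173 without 1 array. Scaling on the hybridisation controls divides each array by 1 factor and so moves all genes in the same direction. It moved the median of all genes by -0.16 and Mafg from 0.50 to 0.34, and gave 87 higher and 269 lower genes. Why these controls differed between arrays, and the cause of the other changes, was not tested. No paired analysis was possible because the groups share only replicate number 3. With 3 arrays per group, a difference such as that of Bach1 or Nfe2l1 was not detectable at this precision.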

Other observations

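Among the genes that NRF2-small Maf dimers activate, the subunits of glutamate-cysteine ligase, the first enzyme of glutathione synthesis, gave unlike values. Gclc, the catalytic subunit, had a signal of 17323, 18667 and 14064 in knockouts 3, 4 and 5, against 7156, 7192 and 7669 in controls 1, 2 and 3, and its second probe set was also higher, at 2.15-fold. Gclm, the modifier subunit, had 5794, 5512 and 4924 in the knockouts, against 4683, 4828 and 5648 in the controls, and the groups overlapped. Its log2 difference was 0.10 in the brighter and 0.09 in the dimmer probe set (limma adjusted p = 0.725 and 0.755 over all probe sets). The difference between the subunits was not tested.

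Slc7a11, the cystine carrier, had 822, 105 and 314 in the knockouts, against 6, 53.2 and 26.5 in the controls. Every knockout was above every control and the knockouts spread widely. Groups without overlap were found in 21.3% of all genes tested. The controls were all under the filter signal of 84.2, which the probe set passed only through the knockouts, so the size of the difference depends on the offset and is not given, and the gene did not pass (limma adjusted p = 0.0694). Its second probe set differed by 0.76 with overlapping groups. Me1, the malic enzyme, had 8030, 7785 and 4831 in the knockouts, against 9857, 8500 and 7036 in the controls, with a log2 difference of -0.32 (adjusted p = 0.501).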
